A study of Mus musculus with 11 samples.

Results

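Geriatric muscle stem cells from the gate titled VCAM1-negative were compared with geriatric stem cells from the gate titled VCAM1-high. The comparison covers 3 VCAM1-negative and 3 VCAM1-high libraries and every gene at 1 RPKM or more in at least 2 of these 6 libraries. RPKM is the number of reads scaled by gene length and by library size. Of 20640 gene symbols in the deposited table, 11247 were kept and 9393 fell below that level. Both groups came from Pax7-CreERT2;Rosa-YFP mice older than 28 months. Tamoxifen (240 mg/kg by mouth for 5 days, at 12 to 14 weeks of age) had made their Pax7-expressing cells and the descendants of those cells YFP-positive. YFP+ cells were sorted with stains for Sca-1, CD31, CD45 and VCAM1, and the VCAM1 gates were set on YFP+ cells of middle-aged mice. The series also holds 2 geriatric VCAM1-low libraries and 3 libraries of YFP+ cells of middle-aged mice (10 to 14 months by the sample labels) with the same alleles and tamoxifen. The sample titles name the gates high, low and negative, while the design text names them high, mid and low or negative. How these names match is not stated, so the negative gate may include cells with low surface VCAM1. Libraries carry the numbers 1 to 3 in both groups. The labels do not say whether a library is 1 animal, a pool or a repeat. The tests therefore rest on variation among these libraries alone, which may be technical.

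VCAM1 is a cell surface adhesion molecule that binds integrins on neighbouring cells, and it is a standard sorting marker of quiescent muscle stem cells, also called satellite cells. These cells lie between the muscle fibre and the basement membrane, express the transcription factor Pax7, and secrete part of the matrix they rest on. When they differentiate they fuse and switch on the contractile genes of the fibre, so transcripts of the sarcomere are a mark of fibres and of late differentiation.

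The libraries held RNA of the labelled cell type in both gates. All 8 defining stem cell markers (Pax7, Myf5, Vcam1, Cdh15, Itga7, Calcr, Chrdl2 and Cdh2) were above 0 in all 6 libraries. A value above 0 does not by itself identify a cell type, and Cdh2 read only 0.543 to 6.37 RPKM. The next pair of genes is named as markers of the labelled cell type, outside the rule for named genes. The calcitonin receptor gene Calcr, a quiescence marker, read 37.1 to 71.9 RPKM. The BMP antagonist gene Chrdl2 read 109 to 374 RPKM. Pax7 was low throughout, at 5.16, 3.94 and 4.76 RPKM in VCAM1-high libraries 1 to 3 and 4.0, 1.71 and 3.46 in VCAM1-negative libraries 1 to 3. Vcam1 itself checks the labels, because cells were sorted on its protein. It read 418, 188 and 263 RPKM in VCAM1-high and 122, 70.4 and 48.6 RPKM in VCAM1-negative libraries, so the gates did not overlap and the negative gate still held Vcam1 RNA. Ptprc (CD45) stayed under the filter, at 3.30 RPKM in VCAM1-high library 3 and at most 0.754 RPKM in the other 5 libraries. Estimated depth ran from 19.88 to 27.68 M reads (M for mega) per library, and 10548 to 11171 genes reached 1 RPKM.

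Differences are given as VCAM1-negative minus VCAM1-high on the log2(RPKM + 1) scale, which understates changes of low genes, with the standard error of the fit. A gene is counted as changed at an adjusted p (limma, Benjamini and Hochberg over all 11247 genes) under 0.05 and a difference of at least 1. Without regard to library number 4 genes changed, 0.0356% of those tested. The fibre genes Tnnc2, Myot and Myoz1 (0.0267%) were higher in VCAM1-negative cells and the mineral matrix gene Dmp1 (0.00889%) was lower (limma adjusted p = 0.0475 for each). Same-numbered libraries of the gates deviated together, and a model of the 8 geriatric libraries with library number as a block was fitted as well. In it 140 genes changed (1.24%), 77 up (0.685%) and 63 down (0.56%), with all 4 genes above among them. At any size of difference 111 genes passed upwards (0.987%) and 393 downwards (3.49%). These 504 became 284 after rescaling by the median ratio and 279 without the variance trend. They became 19 without VCAM1-high library 2, 25 and 27 without VCAM1-low libraries 1 and 2, 39 without VCAM1-negative library 2 and 101 without VCAM1-high library 1. The block over all 11 libraries changed 63 genes (0.56%) and over the 6 libraries alone 25 (0.222%), all among the 140. Leaving out 1 VCAM1-low library does not alter the differences between negative and high libraries in the blocked fit. It only leaves less data to estimate the spread, as in the fit of the 6 libraries. Calls lost without a VCAM1-low library are therefore not a sign that a difference rests on that library. With the filter on low values removed the block model called 1 gene, lower in VCAM1-negative cells. In the blocked fit the count without VCAM1-high library 2 was 19 genes, all among the 140, and without all number-3 libraries it was 217, of which 73 were among the 140. Number 3 has no VCAM1-low library, so leaving out either number-3 library takes number 3 out of the blocked comparison. It then rests on numbers 1 and 2, and the count was again 217. In the text below, rose and fell refer to genes that passed an adjusted p of 0.05 with this block, and adjusted p-values are from this limma fit unless named otherwise. Counts of list members that rose or fell are to be read beside the shares over all genes, 0.987% up and 3.49% down.

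Within a library number the sizes differed. At number 1, 244 genes (2.17%) were higher by at least 1 in VCAM1-negative cells and 68 (0.605%) were lower by as much. At number 2 these counts were 340 (3.02%) and 119 (1.06%), and at number 3 they were 204 (1.81%) and 448 (3.98%). In 42 genes (0.373%) the difference was at least 1 in all 3 numbers, and in 20 genes (0.178%) it was at most -1 in all 3. Differences had the same sign in all 3 numbers in 1528 genes higher (13.6%) and 3444 lower (30.6%) in VCAM1-negative cells. The median difference over all genes was -0.11, -0.09 and -0.02 at numbers 1, 2 and 3. The gates did not overlap in 1273 genes (11.3%), of which 375 were higher in VCAM1-negative cells (3.33%) and 898 lower (7.98%). After rescaling by the median ratio those counts were 618 and 557, and those of the same sign in all 3 numbers 2253 and 2661, so both splits depend on the scaling. List counts below of libraries that do not overlap, or of 1 sign in all 3 numbers, are to be read beside these shares.

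**Figure D1:**
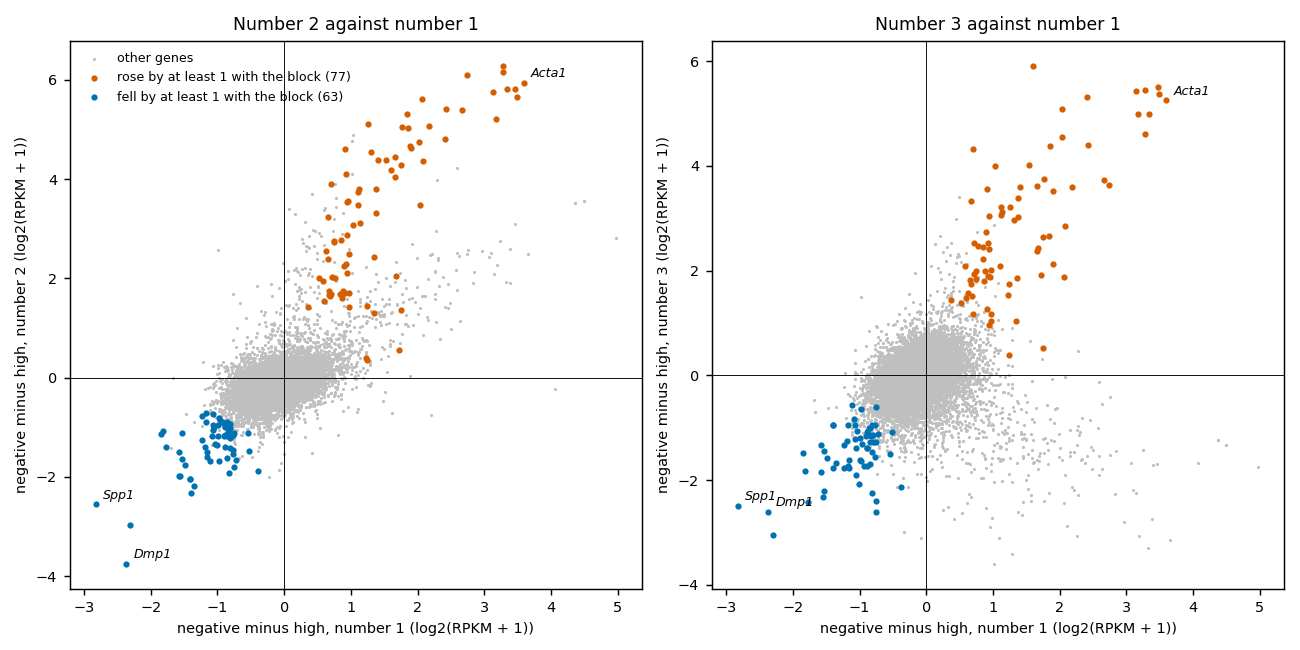
Difference between VCAM1-negative and VCAM1-high libraries within number 2 (left) and number 3 (right) against number 1, on the log2(RPKM + 1) scale, 1 point per gene. The 77 genes that rose by at least 1 with the block (orange) and the 63 that fell by at least 1 (blue) lie in the same quadrant in both panels, and number 3 also holds a group of genes that were higher at number 1 and lower at number 3.

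Genes of the fast muscle fibre were the largest rises. Acta1, skeletal muscle actin of the thin filament, read 22.3, 48.4 and 58.3 RPKM in VCAM1-high libraries 1 to 3 and 280, 3040 and 2254 RPKM in VCAM1-negative libraries 1 to 3. Every VCAM1-negative library was above every VCAM1-high library, and library 1 was the lowest of its gate by a wide margin. The ratio of the means was 43.2, and Acta1 rose by 4.93 ± 0.38 (adjusted p = 0.00444 with the block, 0.0567 without). Tnnc2, the calcium-binding fast troponin subunit, read 6.49, 11.76 and 10.99 RPKM in VCAM1-high and 81.9, 723 and 545 RPKM in VCAM1-negative cells (4.93 ± 0.41, adjusted p = 0.00453). Myl1, a myosin light chain, read 2.04, 4.41 and 7.43 RPKM in VCAM1-high and 33.1, 271 and 347 RPKM in VCAM1-negative cells (4.84 ± 0.39, adjusted p = 0.00444, 0.0515 without the block). In both genes the groups were apart and VCAM1-negative library 1 was again the lowest of its gate.

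Of the 13 tested genes of the fast fibre sarcomere, 10 rose with the block, 1 passed without it, and 11 had libraries that did not overlap. Their median difference was 3.53, against -0.07 over all genes tested. Within numbers 1, 2 and 3 the list median was 2.03, 4.28 and 4.55, with the smallest value at number 1. Myh4, the myosin heavy chain of the fastest fibres, read 0.990, 1.55 and 1.47 RPKM in VCAM1-high and 7.12, 27.6 and 82.8 RPKM in VCAM1-negative cells (3.53 ± 0.48, adjusted p = 0.0165). Myh1, another adult fast heavy chain, read 0.593, 1.48 and 0.993 RPKM in VCAM1-high and 3.13, 33.7 and 19.8 RPKM in VCAM1-negative cells (2.85 ± 0.50, adjusted p = 0.0287). Both heavy chains were higher in all 3 negative libraries. Myh2, the heavy chain of fast oxidative fibres, did not pass (adjusted p = 0.0681), and reached 6.37 RPKM in VCAM1-negative library 2 and at most 0.277 RPKM in VCAM1-high libraries.

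Slow and cardiac sarcomere genes divided. Of 7 tested members 4 rose with the block. Tnnc1, the slow and cardiac troponin C, read 0.555, 1.83 and 0.501 RPKM in VCAM1-high and 3.96, 10.8 and 7.06 RPKM in VCAM1-negative cells (2.05 ± 0.22, adjusted p = 0.0109). Myl3, a slow myosin light chain, rose by 1.88 ± 0.22 (adjusted p = 0.0123) and Myl2, the slow regulatory light chain, by 1.56 ± 0.27 (adjusted p = 0.0287). Actc1, cardiac actin, rose by 1.40 ± 0.26 (adjusted p = 0.0332), though its groups overlapped, with 8.71 RPKM in VCAM1-high library 3 against 2.39 in VCAM1-negative library 1. Tpm3, a tropomyosin also expressed outside muscle, read 402 to 458 RPKM in VCAM1-high and 422 to 597 RPKM in VCAM1-negative libraries (0.18 ± 0.12, adjusted p = 0.422). Myh7, the slow heavy chain, lay below the filter and read 0.0413 to 0.105 RPKM in VCAM1-high and 0.568 to 1.94 RPKM in VCAM1-negative libraries.

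Genes of early muscle went both ways. Of 9 tested embryonic and neonatal fibre genes 1 rose and 2 fell with the block, 4 were higher and 5 lower in the negative gate at every number, and the list median was -0.28. Tnnt2, a troponin T of embryonic muscle and heart, read 0.294, 4.84 and 7.55 RPKM in VCAM1-high and 3.33, 14.0 and 11.3 RPKM in VCAM1-negative cells (1.21 ± 0.25, adjusted p = 0.042). Its groups overlapped. Myh3, the embryonic heavy chain, lay below the filter, at 0.025 to 0.309 RPKM in VCAM1-high and 0.0331, 0.62 and 1.61 RPKM in VCAM1-negative libraries. Myh8, the perinatal heavy chain, read at most 0.0939 RPKM in VCAM1-high libraries and 0.133, 1.80 and 1.56 RPKM in VCAM1-negative libraries 1 to 3 (adjusted p = 0.0947). Chrna1, the alpha subunit of the muscle acetylcholine receptor, read 38.3, 14.6 and 36.7 RPKM in VCAM1-high and 15.6, 8.18 and 13.9 RPKM in VCAM1-negative cells. It was lower within every number and fell by 1.11 ± 0.15 (adjusted p = 0.0155). Rapsn, which clusters that receptor, fell by 0.61 ± 0.10 (adjusted p = 0.0245). Among 16 tested genes of myogenic differentiation and fusion, 2 rose and 1 fell. Mef2c, a transcription factor of muscle genes, read 0.205, 0.150 and 0.913 RPKM in VCAM1-high and 1.30, 4.65 and 6.08 RPKM in VCAM1-negative cells (1.71 ± 0.26, adjusted p = 0.0194). Klhl41, a sarcomere-stabilising protein gene, rose by 2.31 ± 0.46 (adjusted p = 0.0406). Tnnt2, Chrna1, Rapsn, Mef2c and Klhl41 did not pass without VCAM1-high library 2 (adjusted p = 0.0794 to 0.154) or without either VCAM1-low library.

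The Z-disc anchors thin filaments at the ends of the sarcomere. Of 15 tested Z-disc, titin and M-band genes 8 rose with the block, 2 passed without it, and 14 had libraries that did not overlap. Myot (myotilin) read 1.42, 2.20 and 1.66 RPKM in VCAM1-high and 22.5, 226 and 63.9 RPKM in VCAM1-negative cells (4.68 ± 0.47, adjusted p = 0.00739). Myoz1, which tethers calcineurin to the Z-disc, read 1.04, 1.27 and 1.95 RPKM in VCAM1-high and 17.0, 122 and 126 RPKM in VCAM1-negative cells (4.77 ± 0.47, adjusted p = 0.00696). Neither gene passed when VCAM1-high library 2 was left out (adjusted p = 0.0549 for both). Csrp3, the muscle LIM protein, was uneven among negative libraries, with 5.74, 79.7 and 4.87 RPKM against 0.816, 2.15 and 0.353 RPKM in VCAM1-high libraries (2.90 ± 0.59, adjusted p = 0.0416). Of the 15 Z-disc genes 14, Csrp3 among them, were highest in library 2.

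Calcium handling genes of the fibre followed in part. Of 17 tested 4 rose with the block, 10 were higher and 7 lower in the negative gate at number 1, and the list median was 1.02. At number 2, 15 were higher, and at number 3, 14. Among the negative libraries 10 of them were highest in library 3 and 6 in library 2. Atp2a1, the calcium pump of the fast fibre's sarcoplasmic reticulum, read 9.42, 15.5 and 29.7 RPKM in VCAM1-high and 64.8, 694 and 406 RPKM in VCAM1-negative cells (3.93 ± 0.44, adjusted p = 0.0112). Pvalb, the calcium buffer of fast fibres, read 1.20, 0.602 and 2.79 RPKM in VCAM1-high and 5.67, 28.3 and 227 RPKM in VCAM1-negative cells (3.90 ± 0.67, adjusted p = 0.0272). Sln, a regulator of that pump, did not pass (adjusted p = 0.099), with 98.5 RPKM in VCAM1-negative library 2 and 2.29 to 8.36 RPKM in the other 5 libraries. Of 17 tested genes of fibre energy metabolism 9 rose, 14 were higher within every number, and 13 peaked in VCAM1-negative library 3. Ckm, muscle creatine kinase, read 5.30, 7.54 and 17.8 RPKM in VCAM1-high and 62.7, 479 and 597 RPKM in VCAM1-negative cells (4.71 ± 0.39, adjusted p = 0.00453). Pgam2, a muscle glycolytic mutase, rose by 4.18 ± 0.51 (adjusted p = 0.013) and Mb, the oxygen store myoglobin, by 3.76 ± 0.52 (adjusted p = 0.0167). In the separate glycolysis list 1 of 18 tested genes rose and 1 fell. Slc2a4, the insulin-responsive glucose transporter, read 1.97, 3.76 and 2.65 RPKM in VCAM1-high and 4.80, 11.9 and 6.49 RPKM in VCAM1-negative cells (1.15 ± 0.16, adjusted p = 0.0174, 0.105 without VCAM1-high library 2). The glycolytic enzyme gene Eno1 fell by 0.83 ± 0.14 (adjusted p = 0.0272, 0.117 without VCAM1-high library 2).

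Together the 5 fibre lists held 69 tested genes, of which 35 rose with the block and 0 fell. Summed over the 76 of 78 listed genes in the table, fibre transcripts made up 0.189%, 0.185% and 0.27% of all RPKM in VCAM1-high libraries 1 to 3. The shares were 0.38%, 2.45% and 2.11% in VCAM1-negative libraries 1 to 3, 0.178% and 0.212% in VCAM1-low and 0.25% to 0.315% in middle-aged libraries. Tpm3, also expressed outside muscle, is part of these sums. It read 451, 402 and 458 of 838, 805 and 1124 RPKM in VCAM1-high libraries 1 to 3. In VCAM1-negative libraries 1 to 3 it read 422, 480 and 597 of 1628.5, 10804 and 8710 RPKM. The highest negative library held 2.45% and the lowest 0.38%, and library 1 was the lowest of the negative gate for 66 of the 69 genes. In bulk samples, more cells of a kind and more RNA per cell cannot be told apart. Leaving out VCAM1-negative library 1 raised the count of changed genes without a block from 4 to 128, and 33 of the 35 fibre genes passed in the blocked fit without it. Leaving out VCAM1-high library 2 left 5 of the 35, either VCAM1-low library 9, VCAM1-negative library 2 15, VCAM1-high library 1 20, and either number-3 library 22. Acta1, Tnnc2, Ckm and Myl1 passed in all 8 omissions, at adjusted p-values of up to 0.0425. Here and below, the 8 omissions are not 8 separate checks. Leaving out either number-3 library gives the same comparison, and leaving out either VCAM1-low library leaves the differences unchanged.

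Of the 77 genes that rose by at least 1, 37 stood in no list. Hspb7, a small heat shock protein of muscle, was the largest of them, at 0.975, 1.98 and 0.965 RPKM in VCAM1-high and 12.2, 204 and 23.5 RPKM in VCAM1-negative cells (4.16 ± 0.57, adjusted p = 0.0163). The next 5 genes from this set were picked after their values were seen. The related chaperone gene Hspb6 rose by 3.52, Tmod4, which caps thin filaments in muscle, by 3.31, and Ankrd2, a stretch-responsive ankyrin repeat gene, by 3.18. Apobec2, a muscle-enriched member of the deaminase family, rose by 3.12, and Rpl3l, the muscle form of ribosomal protein L3, by 2.46. Of the 37, 1 passed without VCAM1-high library 2, 0 without either VCAM1-low library (limma adjusted p of 0.063 or more), 3 without VCAM1-negative library 2, 6 without either number-3 library, 11 without VCAM1-high library 1 and 35 without VCAM1-negative library 1.

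**Figure D2:**
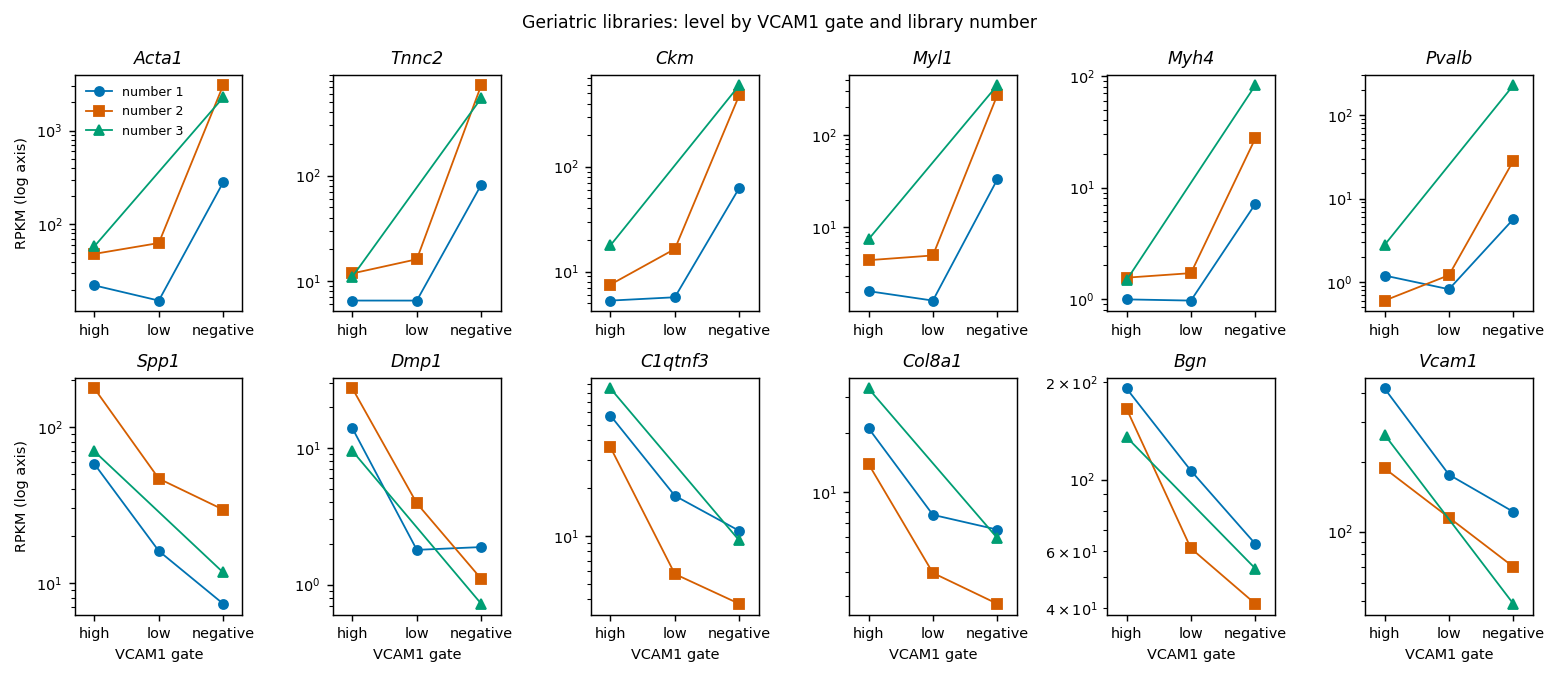
RPKM of 6 fibre genes (top row) and 6 genes that fell (bottom row) in the geriatric libraries by VCAM1 gate, each on its own log axis, with lines joining libraries of the same number (number 3 has no low library). In the top row the low gate lies near the high gate and the negative gate above both, and in the bottom row the low gate already lies well below the high gate.

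Promoter sequences were looked at for the genes that moved together. RefSeq promoters (build GRCm38.p6, 250 bases before to 50 after each start site) were matched by symbol for 61 of the 77 genes that rose by at least 1, 44 of the 63 that fell by at least 1 and 9018 of all genes kept. The MEF2 site, bound by a family of muscle transcription factors, was searched on both strands, as was the CArG box, bound by serum response factor. A MEF2 site was found in 13 of the 61 (21.3%), 0 of the 44 and 2.15% of the genes kept. The CArG box was found in 6 of the 61 (9.84%), 3 of the 44 (6.82%) and 1.69% of the genes kept. The RUNX motif ACCACA was found in 15 of the 61 (24.6%), 11 of the 44 (25%) and 14.6% of the genes kept. The general TATA box (TATAAA) was found in 18.0% of the 61, 22.7% of the 44 and 5.41% of the genes kept. For the E-box CANNTG the shares were 88.5%, 77.3% and 66.7%. Apart from the MEF2 site among genes that fell, each motif was more frequent in both sets than among the genes kept. These searches may overlap in position and a match is not a bound site. The 250 bases before the start site, on the gene's own strand, are shown for 3 genes that rose and 1 that fell because each holds a match. Acta1 lies on the minus strand (chr8:123894776-123895025), Myh4 on the plus strand (chr11:67237562-67237811), Pgam2 on the minus strand (chr11:5803797-5804046), and the first of 2 Spp1 start sites on the plus strand (chr5:104434861-104435110). Capitals mark the CArG box in Acta1, a MEF2 site and then a CArG box in Myh4, the MEF2 site in Pgam2 and ACCACA in Spp1.
Acta1: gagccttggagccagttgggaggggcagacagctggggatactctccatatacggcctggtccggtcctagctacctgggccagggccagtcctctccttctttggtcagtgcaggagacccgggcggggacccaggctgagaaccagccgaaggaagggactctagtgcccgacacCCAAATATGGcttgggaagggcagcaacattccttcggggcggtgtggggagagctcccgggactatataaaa
Myh4: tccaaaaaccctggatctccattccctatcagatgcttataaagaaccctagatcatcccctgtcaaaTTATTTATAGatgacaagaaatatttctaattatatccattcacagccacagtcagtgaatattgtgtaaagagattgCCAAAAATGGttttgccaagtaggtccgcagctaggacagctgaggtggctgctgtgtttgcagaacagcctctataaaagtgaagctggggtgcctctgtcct
Pgam2: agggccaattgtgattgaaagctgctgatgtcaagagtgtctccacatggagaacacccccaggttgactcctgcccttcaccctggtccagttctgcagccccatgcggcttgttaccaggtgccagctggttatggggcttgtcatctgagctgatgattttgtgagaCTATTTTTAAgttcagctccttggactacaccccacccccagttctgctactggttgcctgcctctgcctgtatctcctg
Spp1: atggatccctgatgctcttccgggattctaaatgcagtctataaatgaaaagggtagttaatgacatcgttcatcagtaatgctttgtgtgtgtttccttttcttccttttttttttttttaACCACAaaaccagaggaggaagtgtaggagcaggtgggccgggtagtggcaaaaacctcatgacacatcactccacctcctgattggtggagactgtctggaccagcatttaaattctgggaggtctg

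Secreted matrix and mineral genes were among the largest falls. Spp1 (osteopontin), a secreted phosphoprotein that binds integrins, read 57.9, 177 and 69.9 RPKM in VCAM1-high libraries 1 to 3 and 7.32, 29.5 and 11.6 RPKM in VCAM1-negative libraries 1 to 3. It fell by 2.62 ± 0.12 (adjusted p = 0.000421), with differences of -2.82, -2.55 and -2.49 at numbers 1 to 3, and every negative library was below every high library. Its adjusted p was 0.42 without the block and 0.18 with the block in all 11 libraries. Dmp1, a mineral-binding matrix protein of bone and dentin, read 13.9, 27.2 and 9.50 RPKM in VCAM1-high and 1.88, 1.10 and 0.725 RPKM in VCAM1-negative cells (-2.91 ± 0.27, adjusted p = 0.00593). C1qtnf3, a secreted C1q-family protein, read 57.2, 36.1 and 84.8 RPKM in VCAM1-high and 10.8, 3.75 and 9.38 RPKM in VCAM1-negative cells (-2.77 ± 0.18, adjusted p = 0.00332, 0.172 without the block). These 3 genes did not overlap between gates and passed in all 8 omissions.

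Of 10 tested mineral and bone matrix genes 4 fell, with a list median of -0.78. Besides Spp1 and Dmp1 these were Sparc, a collagen-binding glycoprotein, and Matn2, a matrilin that links matrix networks. Sparc read 152, 96.7 and 399 RPKM in VCAM1-high and 72.8, 48.0 and 105 RPKM in VCAM1-negative cells (-1.32 ± 0.18, adjusted p = 0.0163), and its groups overlapped although it was lower within every number. Matn2 fell by 1.48 ± 0.23 (adjusted p = 0.0199). Both lost their call without VCAM1-high library 2 (adjusted p = 0.0811 and 0.111), VCAM1-negative library 2 (0.0585 and 0.0701) or either VCAM1-low library. Runx2, the osteoblast transcription factor, read 0.902, 2.17 and 1.39 RPKM in VCAM1-high and 0.549, 0.598 and 1.04 RPKM in VCAM1-negative cells and did not pass (adjusted p = 0.176).

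Collagen genes were lower as well. Of 12 tested fibrillar and associated collagens 8 fell with the block, and 11 were lower in VCAM1-negative cells at number 1 and at number 2. The list median was -0.75, and -0.53, -0.78 and -1.07 at numbers 1, 2 and 3. Col8a1, a short-chain collagen of basement membranes, read 21.0, 13.9 and 33.3 RPKM in VCAM1-high and 6.50, 2.75 and 5.90 RPKM in VCAM1-negative cells (-1.95 ± 0.16, adjusted p = 0.00444). Its groups were apart and it passed in all 8 omissions. Col5a3, a chain of type V collagen, fell by 1.03 ± 0.13 (adjusted p = 0.0134). Col3a1, a fibrillar collagen of connective tissue, read 29.0, 19.4 and 201 RPKM in VCAM1-high and 16.7, 6.46 and 32.0 RPKM in VCAM1-negative cells (-1.61 ± 0.31, adjusted p = 0.0372). Library 3 of the high gate stood far above the others. Without it number 3 left the blocked comparison, and the adjusted p was 0.0517. Without that library 2 of the 8 collagens passed, without VCAM1-high library 2, either VCAM1-low library or VCAM1-negative library 2 1, and without library 1 of either gate 5. VCAM1-high library 3 also held the most macrophage marker RNA (summed over 16 genes, 1053 RPKM against 33.6 and 41.2 in libraries 1 and 2), and the part of that RNA in the collagen values was not tested.

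The proteins that modify and fold collagen moved in the same direction in part. Of 20 tested genes of collagen folding and secretion 4 fell. Crtap, a part of the collagen prolyl 3-hydroxylase complex, read 30.9, 16.9 and 52.4 RPKM in VCAM1-high and 16.9, 7.75 and 23.0 RPKM in VCAM1-negative cells (-1.01 ± 0.12, adjusted p = 0.012). Ppib, a prolyl isomerase of the same complex, fell by 0.87 ± 0.10 (adjusted p = 0.013). The 4 genes lost their call without VCAM1-high library 2 (adjusted p = 0.0729 to 0.118), VCAM1-negative library 2 or either VCAM1-low library. Of 10 tested small leucine-rich proteoglycans, which bind collagen fibrils, 2 fell. Bgn (biglycan) read 191, 166 and 135 RPKM in VCAM1-high and 63.2, 41.3 and 53.05 RPKM in VCAM1-negative cells (-1.63 ± 0.15, adjusted p = 0.00585). Its groups were apart, while Dcn (decorin), of the same family, read 326, 501 and 439 RPKM in VCAM1-high and 795, 444 and 704 RPKM in VCAM1-negative cells (0.60 ± 0.24, adjusted p = 0.19). Of 13 basement membrane genes 2 fell, but neither passed in 7 of the 8 omissions (adjusted p = 0.159 and 0.166 without VCAM1-high library 2). Lama2, the main laminin chain of muscle, did not pass (-0.45 ± 0.11, adjusted p = 0.0687).

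Some stem cell identity genes fell, by smaller amounts. Of 25 tested members 7 fell with the block, against 3.49% of all genes tested. Within every number 14 were lower, against 30.6% of all genes, a share that depends on the scaling. The median difference of the 25 was -0.38, against -0.07 over all genes. Vcam1, used for the sort, was 1 of the 7 (-1.86 ± 0.19). Myf5, an early myogenic factor, read 176, 86.1 and 124 RPKM in VCAM1-high and 106, 26.7 and 56.5 RPKM in VCAM1-negative cells (-1.17 ± 0.17, adjusted p = 0.0174). Cdh15, the M-cadherin that holds the stem cell to its fibre, read 209, 77.0 and 241 RPKM in VCAM1-high and 121, 37.6 and 162 RPKM in VCAM1-negative cells (-0.79 ± 0.11, adjusted p = 0.0174). Both genes overlapped between gates and were lower within all 3 numbers. Dag1, dystroglycan, fell by 1.08 ± 0.13 (adjusted p = 0.0123), Itga7, the laminin-binding integrin chain, by 0.94 ± 0.17 (adjusted p = 0.0304), and Ncam1, a neural cell adhesion molecule, by 0.67 ± 0.10 (adjusted p = 0.018). Pax7 (-0.51 ± 0.22, adjusted p = 0.207) and the tetraspanin gene Cd63 (-0.43 ± 0.15, adjusted p = 0.135) did not pass. Cd200, an immunoregulatory surface protein, fell by 0.53 ± 0.11 (adjusted p = 0.0457) and passed in 1 of the 8 omissions. Without VCAM1-high library 2, VCAM1-negative library 2 or either VCAM1-low library, Vcam1 alone of the 7 passed.

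Of 32 tested secreted inflammatory factors 8 fell, against 3.49% of all genes tested. At number 1 20 were lower and 12 higher in the negative gate, where the median over all genes was also below 0 (-0.11). The lymphoid chemokine Ccl19 read 66.4, 63.8 and 45.2 RPKM in VCAM1-high and 24.5, 14.7 and 22.9 RPKM in VCAM1-negative cells (-1.47 ± 0.20, adjusted p = 0.0158). The table gives Gm2023 the same value as Ccl19 in all 6 libraries, so reads of near-identical copies cannot be assigned to 1 gene. Cxcl10, an interferon-induced chemokine, fell by 0.82 ± 0.11 (adjusted p = 0.0163) and Igfbp5, an IGF-binding protein, by 1.08 ± 0.17 (adjusted p = 0.0199). Without VCAM1-high library 2, VCAM1-negative library 2 or either VCAM1-low library, 1 of the 8 passed. Itm2a, a membrane protein of myogenic and cartilage cells, fell by 1.48 ± 0.13 (adjusted p = 0.00585) and S100a4, a calcium-binding protein of motile cells, by 1.42 ± 0.14 (adjusted p = 0.00696). Both lost their call without VCAM1-high library 2 (adjusted p = 0.0549 for each).

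Of the 63 genes that fell by at least 1, 41 stood in no list and 0 in a fibre list. The 4 matrix lists (mineral and bone, fibrillar collagen, basement membrane and proteoglycan) held 10 of the 63. Of the 41, 6 passed without VCAM1-high library 2, 8 and 9 without VCAM1-low libraries 1 and 2, 11 without VCAM1-negative library 2, 23 without VCAM1-high library 1, 33 without VCAM1-negative library 1 and 39 without either number-3 library. The following 4 were picked after their values were seen, because they passed in all 8 omissions. Lgals1 (galectin-1, a secreted sugar-binding protein) read 267, 91.1 and 230 RPKM in VCAM1-high and 91.2, 28.8 and 48.8 RPKM in VCAM1-negative cells (-1.79 ± 0.16, adjusted p = 0.00575). Capn6, a calpain without protease activity, read 79.3, 29.0 and 54.0 RPKM in VCAM1-high and 30.6, 5.58 and 16.1 RPKM in VCAM1-negative cells (-1.74 ± 0.16, adjusted p = 0.00585). Serpinf1, a secreted serpin, fell by 1.60 ± 0.12 (adjusted p = 0.00444) and Islr, a leucine-rich repeat protein of mesenchymal cells, by 1.64 ± 0.14 (adjusted p = 0.00453). In all 4 the gates overlapped, and the level was lower within every number.

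**Figure D3:**
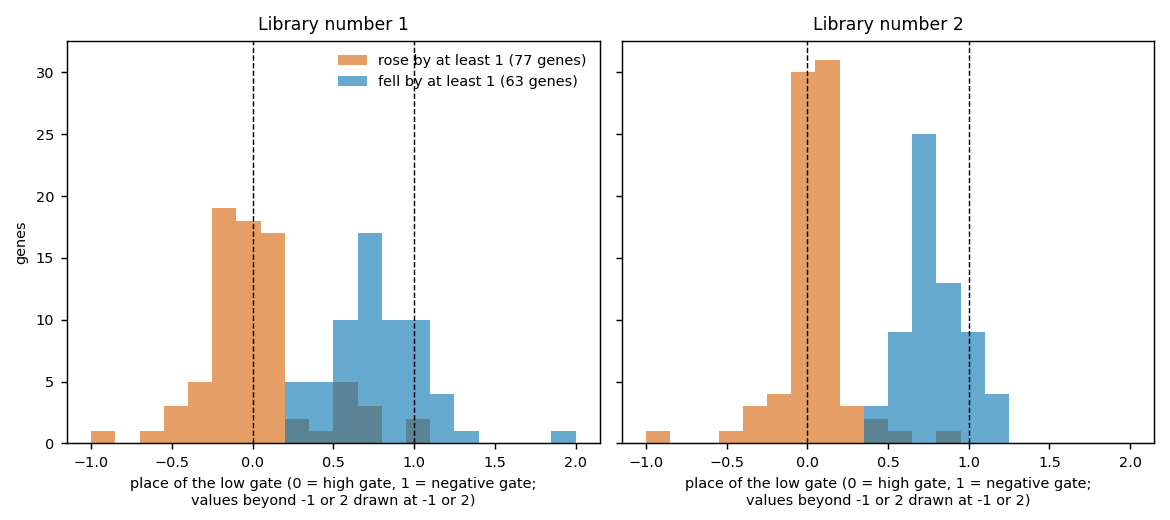
Histogram of where the VCAM1-low library lies between the VCAM1-high (0) and VCAM1-negative (1) library of its number, on the log2(RPKM + 1) scale, for the 77 genes that rose and the 63 that fell by at least 1. The rising genes gather at 0 (medians -0.01 and 0.05 at numbers 1 and 2) and the falling genes between 0.5 and 1 (medians 0.71 and 0.75).

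The VCAM1-low libraries, present at numbers 1 and 2, place the 2 sets of genes differently. For the 77 genes that rose by at least 1, the low library was nearer to the high than to the negative library in 67 genes at number 1 and 75 at number 2. Its median place on the way from high (0) to negative (1) was -0.01 and 0.05. For the 63 genes that fell by at least 1, the low library was nearer to the high library in 10 and 3 genes, and its median place was 0.71 and 0.75. Acta1 read 15.4 and 63.2 RPKM in VCAM1-low libraries 1 and 2, beside 22.3 and 48.4 in the high and 280 and 3040 in the negative libraries of those numbers. Spp1 read 16.0 and 46.7 RPKM in the low gate, beside 57.9 and 177 in the high and 7.32 and 29.5 in the negative gate. Dmp1 read 1.80 and 3.94 RPKM in the low gate, and at number 1 it was at the level of the negative library. The genes were chosen by the difference between high and negative libraries, and each place is computed from those same libraries, so these places are a description with no test.

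Stress and growth genes gave smaller and mixed differences. Of 17 tested integrated stress response genes 2 rose and 2 fell. Chac1, a glutathione-degrading enzyme, read 4.24, 3.57 and 1.84 RPKM in VCAM1-high and 7.39, 13.6 and 7.12 RPKM in VCAM1-negative cells (1.29 ± 0.21, adjusted p = 0.0236), and Atf3, a stress-induced transcription factor, rose by 0.59 ± 0.12 (adjusted p = 0.0406). The serine synthesis enzymes went the other way, with Psat1 down by 1.20 ± 0.19 (adjusted p = 0.0229) and Phgdh by 1.42 ± 0.29 (adjusted p = 0.0422). The 4 genes lost their call without VCAM1-high library 2 or either VCAM1-low library. Fbxo32, a ubiquitin ligase of muscle atrophy, rose by 0.98 ± 0.17 (adjusted p = 0.0301) but passed in 1 of the 8 omissions, whereas Trim63, the other ligase of that pathway, read 1.62, 88.3 and 10.1 RPKM in VCAM1-negative and 0.292 to 2.29 RPKM in VCAM1-high libraries and did not pass (adjusted p = 0.0619). Of 15 tested replication and mitosis genes 3 had libraries that were all lower in the negative gate, and the list median was -0.27.

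**Figure D4:**
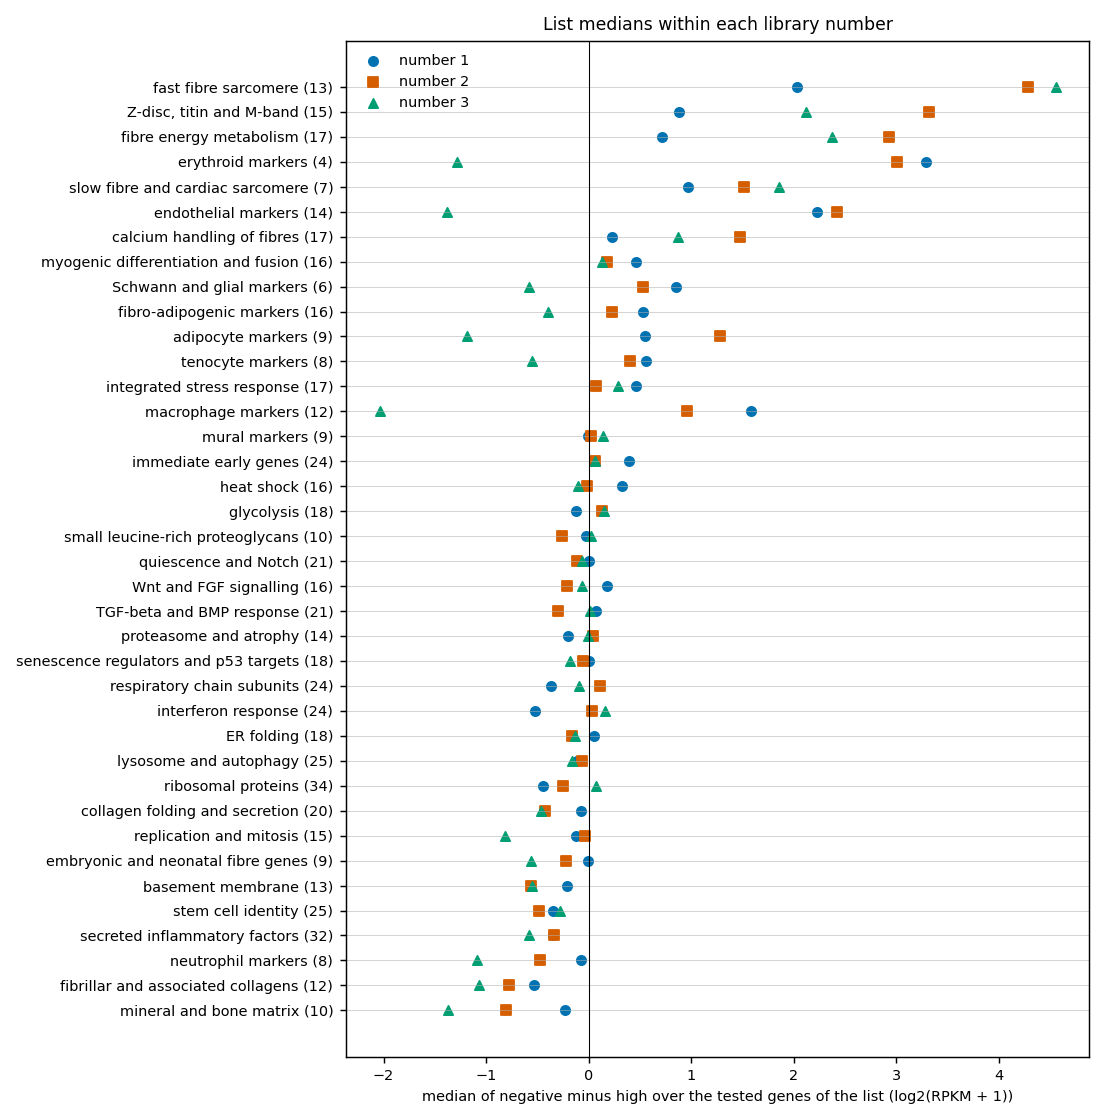
Median difference between VCAM1-negative and VCAM1-high libraries over the tested genes of each list (number in brackets) on the log2(RPKM + 1) scale, 1 symbol per library number. The 5 fibre lists lie above 0 at all 3 numbers and the collagen list below 0, while endothelial, macrophage and erythroid markers lie above 0 at numbers 1 and 2 and below 0 at number 3.

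Markers of endothelial cells, macrophages and erythroid cells changed direction with the library number. Not every list of other cells did so. Neutrophil markers had median differences of -0.08, -0.47 and -1.08 at numbers 1 to 3, and 1 of 8 tested fell. Medians of mural markers, of cells in the vessel wall, stayed near 0 (-0.01, 0.02 and 0.14). Endothelial markers had a median difference of 2.23, 2.42 and -1.38 at numbers 1, 2 and 3, and all 14 tested members were higher in the negative gate at numbers 1 and 2. Summed over the 16 markers in the table, they read 34.4, 71.4 and 261 RPKM in VCAM1-high and 221, 356 and 86.4 RPKM in VCAM1-negative libraries. Macrophage markers read 33.6, 41.2 and 1053 RPKM in VCAM1-high and 135, 133 and 262 RPKM in VCAM1-negative libraries, with medians of 1.58, 0.96 and -2.04. Erythroid markers read 14.5, 54.4 and 492 RPKM in VCAM1-high and 347, 654 and 195 RPKM in VCAM1-negative libraries. In these 3 lists 0 markers in the table were at 0 in all 6 libraries. The genes of the proteins used to exclude cells moved alike. Pecam1 (CD31) read 0.906, 2.05 and 10.2 RPKM in VCAM1-high and 10.8, 15.7 and 2.23 RPKM in VCAM1-negative cells (adjusted p = 0.433), and Ly6a (Sca-1) read 2.88, 7.53 and 40.4 RPKM in VCAM1-high and 26.8, 36.2 and 14.3 RPKM in VCAM1-negative cells (adjusted p = 0.356). Leaving out VCAM1-high library 3 takes number 3 out of the blocked comparison, which then rests on numbers 1 and 2. In that fit both passed (adjusted p = 0.00464 and 0.00501), as did the endothelial gene Emcn (0.00609) and the macrophage lysozyme gene Lyz2 (0.0184). Without VCAM1-negative library 3 instead, the adjusted p-values were 0.00426, 0.0048, 0.00625 and 0.018 in that order. Fibro-adipogenic markers, 20 genes of muscle connective tissue cells, summed to 1689, 1240 and 2169 RPKM in VCAM1-high and 1999, 1219 and 2127 RPKM in VCAM1-negative libraries, and 1 of the 16 tested fell (Dpt, a dermatopontin gene, by 1.28 ± 0.10, adjusted p = 0.00444). At number 3 the fast fibre list was higher by 4.55 while endothelial, macrophage and erythroid medians were below 0. The part of these other cells in the fibre, matrix and stem cell results was not tested beyond these values.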

How the data were processed

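TRI Reagent was used for RNA extraction and the SMART-Seq v4 kit for amplification before paired-end sequencing, per the labels' protocols. Tools in the submitters' processing notes are STAR 2.7.5b, Bowtie2 2.1.0, cutadapt 3.1 and SAMtools 0.1.19, with build GRCm39. Reads were counted with a tool and an annotation not given in the sources used here. RPKM values, with no counts, were deposited by the authors for 20640 symbols in 11 libraries. Depth was estimated from the step that 1 read makes in values of 0.1 RPKM or less (64.5% to 72.1% of them lay within 0.1 of a whole read). These estimates rest on transcript lengths of another annotation, so no count test was run.

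For testing, log2(RPKM + 1) was fitted by limma 3.58.1 (R 4.3.3) with a variance trend. The main model had 4 group means over all 11 libraries and no block, and the filter was 1 RPKM in at least 2 of the 6 libraries. Library numbers were then tested as a pairing. After removing group means, same-numbered VCAM1-high and VCAM1-negative libraries correlated at 0.421, 0.587 and 0.416 across genes, and with the VCAM1-low libraries at 0.492 to 0.574. The numbers were therefore taken to pair the samples, from the data and not from the labels, and the block model on the 8 geriatric libraries is given beside the main one. The fits were tested on simulated data with known changes.

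The members and all 39 gene lists were chosen with earlier results of these data known. The naming rule takes the sort and lineage genes (Ptprc, Pecam1, Ly6a, Vcam1, Pax7) and Cd63 and Cd200. It adds the 12 rises and 12 falls with the largest smallest within-number difference (groups apart, higher mean of at least 5 RPKM), up to 8 genes of each list with the smallest blocked p, and 6 myosin heavy chains. Calcr and Chrdl2 come from the fixed marker list instead, other genes outside the rule are marked, and 1 of the 12 falls is not reported here. Alternatives were other pseudocounts, filters and scalings, other block models and each geriatric library left out.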

Additional observations from a re-analysis of the deposited data

How the results depend on the processing

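The 4 genes changed without a block became 140 with the replicate block in the 8 geriatric libraries, 63 with the replicate block in all 11 libraries and 25 with the replicate block in the 6 libraries of the 2 gates. All 63 and all 25 were among the 140. Without a block the count was 0 with only the 6 or only the 8 geriatric libraries, 23 and 13 with pseudocounts of 0.1 and 0.5, 0 with no filter on low values, 18 at a mean of at least 5 RPKM, 0 with the filter taken over all 11 libraries, 13 after rescaling to an equal sum and 16 by the median ratio. Leaving out 1 geriatric library gave 0 to 128 genes, with 128 without VCAM1-negative library 1. No middle-aged library was left out. In the limma fits that called 0 genes, 426 to 1188 had an unadjusted p under 0.05, against 752 in the model reported. With the block the 140 became 1 with no filter on low values and 217 without the number-3 libraries. With 1 library left out the blocked count was 88, 19 and 217 without VCAM1-high libraries 1 to 3, 25 and 26 without VCAM1-low libraries 1 and 2, and 216, 39 and 217 without VCAM1-negative libraries 1 to 3. Filters chosen after seeing the data gave 136 (1 RPKM in at least 3 of the 6) and 127 (0.5 RPKM in at least 2). The 62 genes with a difference of at least 1 in all 3 numbers became 145 and 98 with pseudocounts of 0.1 and 0.5, and 76 to 195 when 1 number was left out. The cause of these changes was not tested. Direction was checked for the genes named by the rule and given with values here. The runs covered were the block models, both rescalings, the pseudocount of 0.1 and the omissions of high or negative libraries. Of those genes called with the block, none changed direction in these runs. A block over all libraries of both gates leaves each difference as it was, so the block models could not change a direction. The genes were also chosen by their adjusted p in these same libraries. Changes of genes near 1 RPKM are limited by depth and by the added pseudocount.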
